A study of Mus musculus with 16 samples.

Results

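The 10 genes described here are the receptors Notch1 and Notch2, the ligands Dll1, Dll4 and Jag1, the transcription factors Rbpj and Hes1, and the fate factors Atoh1, Neurog3 and Gfi1. They were taken by gene symbol from the 46078 genes of the count table, and all 10 were found and passed the filter on low counts in each comparison. RNA sequencing was performed on ileum mucosa of Slfn3KO mice, which lack the growth regulator Slfn3, and of WT littermates. The study asked how the loss of Slfn3 changes gene expression in the intestine of either sex. There were 4 libraries each of female WT, female Slfn3KO, male WT and male Slfn3KO mice, 16 in all. Every mouse was of strain background C57Bl/6 and no treatment is given, and the knockout is present in all cells of the mouse, not in the epithelium alone. The labels give an age of 8 weeks, whereas the methods of the study give an older range.

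In the crypts of the small intestine, Delta and Jagged ligands on one cell bind Notch receptors on its neighbour. The freed intracellular part of the receptor joins the DNA-binding protein RBPJ and turns on Hes1, a repressor. HES1 holds Atoh1 down, so that cells with active Notch become absorptive enterocytes. Cells that escape it express ATOH1 and ligands and become goblet, Paneth or enteroendocrine cells.

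RBPJ and HES proteins bind short DNA words, which were searched for in the start regions of these genes. RefSeq start regions were found for 9 of the 10 genes, with none for Hes1. Over the 250 bases before the start in GRCm38.p6, the RBPJ core TGGGAA occurred on either strand in 21.6% of 32851 mouse start regions, the HES class C word CACGNG in 23.5% and the N box CACNAG in 36.7%. These words may overlap other motifs, and CACGNG also covers the E box CACGTG. Among the 9 genes, Rbpj was alone in holding TGGGAA, whereas Atoh1 had CACGNG at 3 places, Jag1 and Neurog3 at 2 places, and Notch2, Dll1 and Dll4 at 1 place in a start region. The N box occurred at 1 place each in Notch1, Notch2 and Dll4, 3 of the 9 genes, and Gfi1 held none of the 3 words. The regions of Atoh1 (chr6:64728875-64729124, plus strand), Neurog3 (chr10:62132840-62133089, plus strand) and Rbpj (chr5:53590096-53590345, plus strand) are shown because they hold the most matches among the fate factors and the nuclear effector. Capitals mark CACGNG in the first 2 and TGGGAA in the last, in either direction.
Atoh1: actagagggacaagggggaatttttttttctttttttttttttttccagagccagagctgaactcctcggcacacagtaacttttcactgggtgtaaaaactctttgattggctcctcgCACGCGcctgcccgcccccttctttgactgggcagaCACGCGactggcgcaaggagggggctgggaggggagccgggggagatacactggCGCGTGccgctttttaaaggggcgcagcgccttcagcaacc
Neurog3: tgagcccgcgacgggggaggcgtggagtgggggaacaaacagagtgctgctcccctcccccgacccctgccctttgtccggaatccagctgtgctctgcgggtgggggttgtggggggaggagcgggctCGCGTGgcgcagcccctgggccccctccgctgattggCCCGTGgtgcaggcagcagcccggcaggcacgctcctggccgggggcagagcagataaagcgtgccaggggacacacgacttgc
Rbpj: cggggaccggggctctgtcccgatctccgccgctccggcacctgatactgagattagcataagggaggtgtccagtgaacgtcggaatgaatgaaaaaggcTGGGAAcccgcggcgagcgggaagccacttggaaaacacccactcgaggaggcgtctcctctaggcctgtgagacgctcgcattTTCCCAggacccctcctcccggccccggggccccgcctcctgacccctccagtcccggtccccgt
A match describes these letters only, and binding was not measured.

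Between 20823279 and 30813117 reads per library fell on genes. Slfn3 had 0 to 2 reads in the 8 Slfn3KO libraries and 0 to 19 in the 8 WT libraries, so the targeted gene separated the genotypes poorly at this depth. In 4 of the 16 libraries the sex transcripts Xist, Ddx3y, Kdm5d, Uty and Eif2s3y went against the sex label. These were WT 3 and WT 4 of either labelled sex, and the results that rest on them are therefore also given without them. Female WT 3 and 4 had 3 and 0 reads of Xist and 1014 and 1134 of Ddx3y. Male WT 3 and 4 had 12851 and 9652 reads of Xist and 0 and 1 of Ddx3y. By these transcripts each labelled WT group held both sexes, and each Slfn3KO group the labelled sex only. Female, male and interaction values with all libraries thus set Slfn3KO mice of the labelled sex against WT mice of both. Male and female are the deposited labels throughout. Summed epithelial markers lay between 10676 and 17881 CPM in all libraries. Other cell types of the mucosa that could carry the 10 genes also varied. Summed B cell and follicle markers reached 287 CPM (reads scaled to a common library size) in female WT 3, 369 in female WT 4 and 583 in male WT 3, against 122 in male WT 4 and 0.685 to 83.8 in the other 12 libraries, with none of the 6 markers at 0 throughout. In bulk RNA, fewer cells of a type and less RNA per cell cannot be told apart.

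The level per exon length ordered the 10 genes from Atoh1 at a median of 14.5 CPM per kb of exon over all libraries, through Hes1 at 13.9, Dll1 at 7.91, Dll4 at 6.56, Gfi1 at 2.90, Jag1 at 1.36, Rbpj at 1.09, Notch2 at 1.02 and Notch1 at 0.927, to Neurog3 at 0.508. Only Dll4 and Gfi1 were neighbours in this order whose ranges over the 16 libraries did not overlap. The order depends on the exon lengths in the count data, which were 12750 bases for Rbpj, 3246 for Gfi1 and 5827 for Jag1. In CPM without this scaling Rbpj, at a median of 13.96, stood above Gfi1 at 9.40 and Jag1 at 7.92. Rbpj varied least, with a highest library 1.36 times the lowest, while Neurog3 varied 6.29 times and Notch2 5.89 times.

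**Figure D1:**
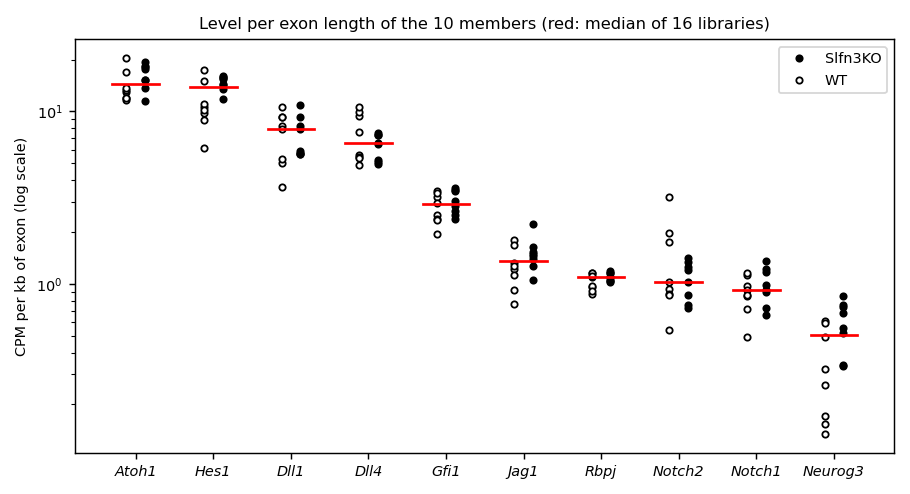
Levels of the 10 genes in CPM per kb of exon on a log axis, with 1 open point per WT library, 1 filled point per Slfn3KO library and a red line at the median of 16 libraries. Atoh1 and Hes1 lie highest at medians of 14.5 and 13.9, and Neurog3 lowest at 0.508.

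Genotypes were first compared over all 16 mice with labelled sex as a covariate. None of the 10 genes, and none of the 14822 genes tested, passed an adjusted p-value under 0.05 with a change of at least 1.5-fold in the quasi-likelihood F test of edgeR, adjusted after Benjamini and Hochberg (0% of genes). With DESeq2 55 genes passed (0.371%), again without any of the 10. When WT 3 and 4 were left out, 9 values of the 10 were positive, and Dll1 alone was under 0.05 unadjusted, with a lower value. With all libraries at an unadjusted p-value under 0.05, 1770 genes (11.9%) were reached, among them Hes1 and Neurog3, both with higher values in Slfn3KO mice, a direction taken by 4.84% of all genes at that level. Of the 10 genes 7 had a positive log2 fold change and 3 a negative one, with a median of 0.12 beside -0.0037 over all genes. No gene of the 10 separated the 8 Slfn3KO from the 8 WT libraries without overlap, which 0.027% of all genes did.

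**Figure D2:**
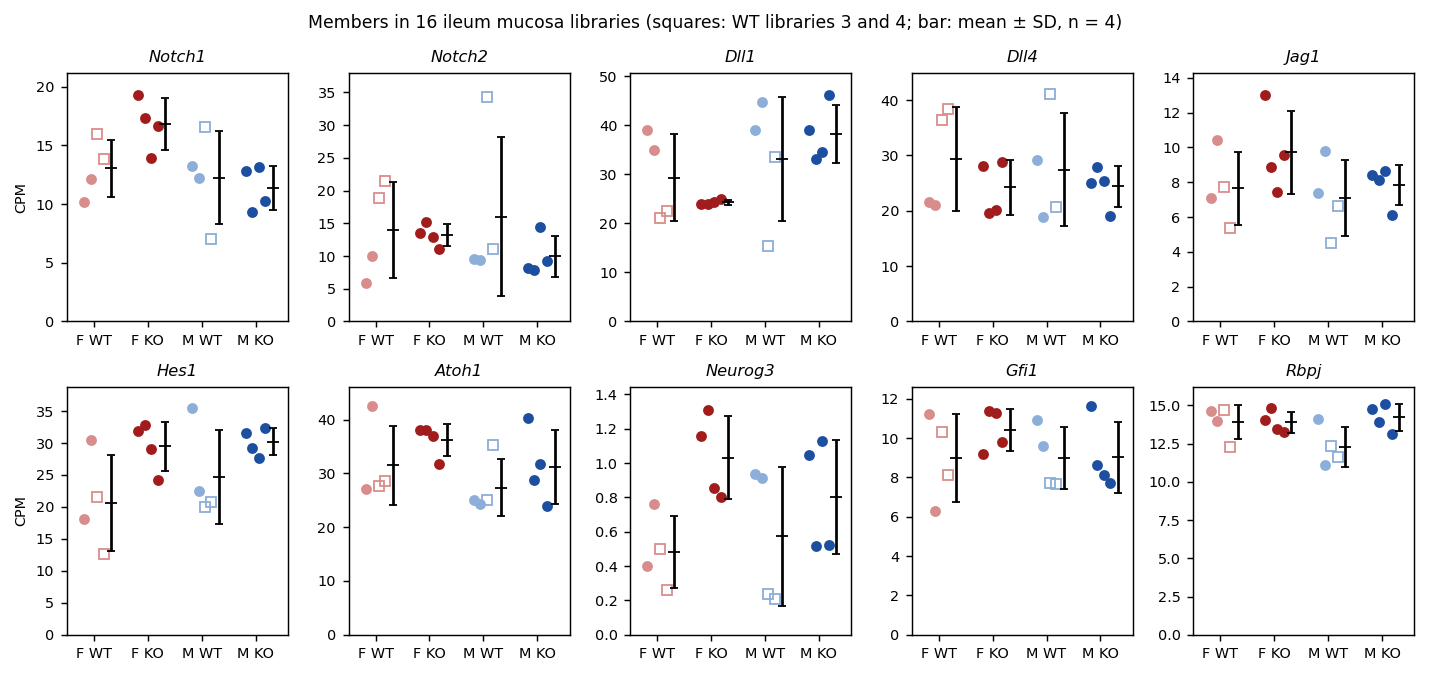
CPM of each of the 10 genes in each library (points; open squares are WT 3 and 4, whose sex transcripts go against the label) for female (F) and male (M) WT and Slfn3KO (KO) mice, with black bars for mean ± SD (n = 4). The 4 female Slfn3KO libraries lie between 23.9 and 25.0 CPM for Dll1, while Notch2 reaches 34.3 CPM in 1 male WT library.

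Notch1 (ENSMUSG00000026923, mm10 chromosome 2, 26457903 to 26516663) encodes the main receptor of crypt progenitor cells. It was 10.2, 12.2, 15.9 and 13.9 CPM in female WT libraries 1 to 4 and 19.3, 17.3, 13.9 and 16.6 CPM in female Slfn3KO libraries. In males it was 13.2, 12.2, 16.6 and 7.02 CPM in WT and 12.8, 9.36, 13.2 and 10.3 CPM in Slfn3KO libraries. Female Slfn3KO 1, 2 and 4 were the highest of all 16 libraries, and both comparisons overlapped. The log2 fold change was 0.36 in females (SE 0.161, adjusted p = 0.295), -0.11 in males and 0.13 pooled, by edgeR with Benjamini-Hochberg adjustment. The female value without WT 3 and 4 was 0.57 (unadjusted p = 0.0122, adjusted p = 0.144) and the ranges no longer overlapped, while 12.1% of all genes were under 0.05 unadjusted and higher there. Female WT 1 and 2, left in that fit, also had higher summed enterocyte and proximal small intestine markers than every female Slfn3KO library, as given below. This limit holds for each female value without WT 3 and 4.

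Notch2 (ENSMUSG00000027878, chromosome 3, 98013527 to 98150361) encodes a receptor that also acts in B cell and myeloid development. Its value is uncertain to the extent that the gene shares exon sequence on the same strand with Gm42820. It was 5.82, 10.1, 18.8 and 21.4 CPM in female WT and 13.6, 15.2, 12.9 and 11.03 CPM in female Slfn3KO libraries. In males it was 9.47, 9.32, 34.3 and 11.1 CPM in WT and 8.14, 7.85, 14.5 and 9.31 CPM in Slfn3KO libraries. The 3 highest libraries for Notch2, male WT 3, female WT 4 and female WT 3, were also the 3 highest for the B cell and follicle markers and for the myeloid markers, and the part of those cells in the Notch2 values was not tested. The pooled log2 fold change was -0.39 (SE 0.313, adjusted p = 0.638 by edgeR, Benjamini-Hochberg), and without WT 3 and 4 it turned to 0.39 (unadjusted p = 0.0904, adjusted p = 0.761). In females it was -0.10 with all libraries and 0.72 without WT 3 and 4 (unadjusted p = 0.0255, adjusted p = 0.167). In males it was -0.70, and 0.02 without male WT 3 alone.

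Dll1 (ENSMUSG00000014773, chromosome 17, 15367354 to 15376872) encodes a ligand carried by young secretory cells. It was 39.0, 34.9, 21.1 and 22.4 CPM in female WT and 23.9, 24.0, 24.3 and 25.0 CPM in female Slfn3KO libraries. In males it was 38.9, 44.7, 15.4 and 33.6 CPM in WT and 39.0, 33.2, 34.6 and 46.2 CPM in Slfn3KO libraries. The female Slfn3KO libraries were nearly equal, and the 3 WT libraries with the most B cell markers were the 3 lowest of all. The pooled log2 fold change was -0.03 (SE 0.191, adjusted p = 0.955 by edgeR, Benjamini-Hochberg). With WT 3 and 4 left out it was -0.37 (SE 0.112, unadjusted p = 0.00594, adjusted p = 0.761), at which level 3.1% of all genes were lower. The female value went from -0.28 (adjusted p = 0.438) to -0.61 (SE 0.0997, unadjusted p = 0.000494, adjusted p = 0.109), rank 57 of 14634 genes by p-value and among 11.8% under 0.05 unadjusted and lower, and the male value from 0.21 to -0.12.

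Dll4 (ENSMUSG00000027314, chromosome 2, 119325784 to 119335962) encodes a ligand of secretory and endothelial cells. It was 21.5, 21.1, 36.4 and 38.4 CPM in female WT, 28.1, 19.7, 20.2 and 28.9 CPM in female Slfn3KO, 29.1, 18.8, 41.1 and 20.7 CPM in male WT and 25.1, 28.0, 25.4 and 19.1 CPM in male Slfn3KO libraries. The same 3 WT libraries as for Notch2 were the highest, and the groups overlapped. The pooled log2 fold change was -0.22 (SE 0.179, adjusted p = 0.638 by edgeR, Benjamini-Hochberg) and 0.10 without WT 3 and 4. Jag1 (ENSMUSG00000027276, chromosome 2, 137081456 to 137116644), a Jagged ligand of several tissue layers, ranged from 4.48 CPM in male WT 3 to 13.02 CPM in female Slfn3KO 1. Its pooled log2 fold change was 0.25 (SE 0.172, unadjusted p = 0.172) and 0.00 without WT 3 and 4.

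**Figure D3:**
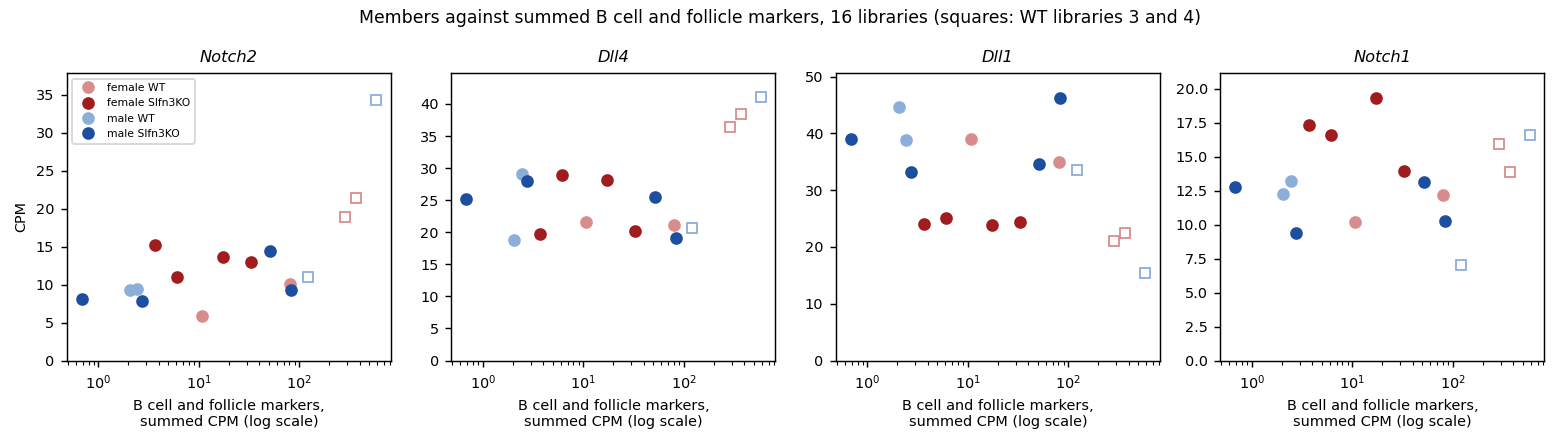
CPM of Notch2, Dll4, Dll1 and Notch1 (y axes) against the summed CPM of 6 B cell and follicle markers (x axes, log scale), 1 point per library, with open squares for WT 3 and 4. The 3 libraries with 287, 369 and 583 CPM of these markers have the highest Notch2 and Dll4 and the lowest Dll1 of the 16.

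Rbpj (ENSMUSG00000039191, chromosome 5, 53466152 to 53657362) encodes the DNA-binding partner of the cleaved receptors. It ranged from 11.1 CPM in male WT 2 to 15.1 CPM in male Slfn3KO 3. The pooled log2 fold change was 0.10 (SE 0.0753, adjusted p = 0.600 by edgeR, Benjamini-Hochberg), the smallest error among the 10 genes, and 0.06 without WT 3 and 4. The table also lists the copies Rbpj-ps1 and Rbpj-ps3, so that reads shared with them are uncertain.

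Hes1 (ENSMUSG00000022528, chromosome 16, 30064384 to 30067796) encodes the repressor that Notch turns on. It was 18.1, 30.4, 21.6 and 12.6 CPM in female WT and 31.8, 32.8, 29.0 and 24.2 CPM in female Slfn3KO libraries. In males it was 35.5, 22.5, 19.97 and 20.7 CPM in WT and 31.6, 29.2, 27.7 and 32.3 CPM in Slfn3KO libraries. The 8 Slfn3KO libraries lay close together at 29.8 ± 2.91 CPM (SD, n = 8), within the wider spread of the WT libraries at 22.7 ± 7.17 CPM (SD, n = 8), of which male WT 1 was the highest of all. The pooled log2 fold change was 0.40 (SE 0.159, unadjusted p = 0.0234, adjusted p = 0.337 by edgeR, Benjamini-Hochberg). It stayed between 0.31 and 0.50, with an unadjusted p between 0.00259 and 0.0453, when each library was left out. Without WT 3 and 4 together it was 0.16 (unadjusted p = 0.302), and female WT 4 and male WT 3 were among the 3 lowest libraries. The value was 0.50 in females and 0.30 in males, each with overlapping groups, and 0.27 and 0.07 without WT 3 and 4.

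Atoh1 (ENSMUSG00000073043, chromosome 6, 64729146 to 64731233) encodes a factor that goblet, Paneth and enteroendocrine cells need to form. It was 27.2, 42.5, 27.7 and 28.6 CPM in female WT, 38.0, 38.1, 37.0 and 31.8 CPM in female Slfn3KO, 25.0, 24.2, 25.0 and 35.2 CPM in male WT and 40.3, 28.7, 31.8 and 24.0 CPM in male Slfn3KO libraries. In each WT group 1 library, female WT 2 and male WT 4, stood above the other 3. The log2 fold change was 0.20 pooled (SE 0.122, adjusted p = 0.543 by edgeR, Benjamini-Hochberg), 0.20 in females and 0.20 in males. Without WT 3 and 4 it was 0.19 pooled, 0.04 in females (unadjusted p = 0.819) and 0.35 in males (unadjusted p = 0.119). Gfi1 (ENSMUSG00000029275, chromosome 5, 107716657 to 107726036), a repressor that keeps goblet and Paneth precursors from the enteroendocrine path, ranged from 6.30 to 11.6 CPM, with a pooled log2 fold change of 0.11 (SE 0.135), and 0.02 without WT 3 and 4.

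Neurog3 (ENSMUSG00000044312, chromosome 10, 62133090 to 62134763) encodes the factor that starts the enteroendocrine path in a few short-lived cells, and it had only 5 to 32 reads per library. It was 0.402, 0.761, 0.497 and 0.263 CPM in female WT and 1.16, 1.31, 0.854 and 0.802 CPM in female Slfn3KO libraries. In males it was 0.934, 0.911, 0.238 and 0.208 CPM in WT and 1.04, 0.516, 1.13 and 0.522 CPM in Slfn3KO libraries. The females did not overlap, which no other gene of the 10 showed and which 5.24% of all genes showed in that direction. In females the log2 fold change was 1.08 (SE 0.355, unadjusted p = 0.0145, adjusted p = 0.244 by edgeR, Benjamini-Hochberg), and 17.1% of all genes were under 0.05 unadjusted there, 8.58% with higher values. The pooled value was 0.78 (SE 0.346, unadjusted p = 0.0386, adjusted p = 0.389). With each library left out the pooled unadjusted p lay between 0.0146 and 0.0788, under 0.05 in 7 of 16 fits, and without WT 3 and 4 the pooled value was 0.26 (unadjusted p = 0.430), the female value 0.79 (unadjusted p = 0.0981) and the male value -0.18.

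**Figure D4:**
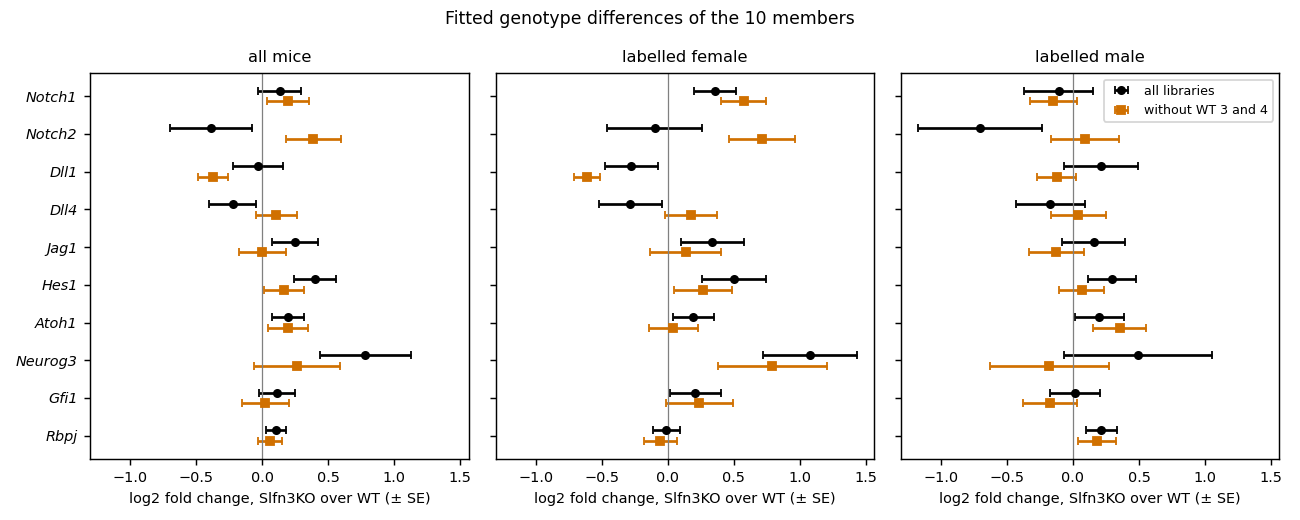
Fitted log2 fold change of Slfn3KO over WT (x axes; bars are ± SE) for the 10 genes over all mice, libraries labelled female and libraries labelled male, with all libraries (black) and without WT 3 and 4 (orange). Neurog3 in females lies at 1.08 with all libraries, and Notch2 over all mice moves from -0.39 to 0.39.

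In each sex alone, none of the 10 genes and no gene of the 14064 tested in females or the 14124 in males passed the adjusted threshold with edgeR (0%). DESeq2 called 506 genes in females (3.6%) and 14 in males (0.0991%), none of them among the 10. Unadjusted p-values under 0.05 were reached by Neurog3 alone in females and by none of the 10 in males, where 3.84% of all genes reached it. Without overlap of the groups, 7.91% of genes separated the genotypes in females and 2.35% in males, where none of the 10 did. When WT 3 and 4 were left out, Notch1, Notch2 and Neurog3 were higher and Dll1 lower in all female Slfn3KO libraries than in the 2 remaining WT libraries, beside 18.7% and 16.9% of all genes, and no gene of the 10 was separated in males, beside 17.6%. In female WT 1 and 2, summed enterocyte markers were 44439.5 and 27322.5 CPM, against 4895 to 17357 CPM in female Slfn3KO libraries. Summed proximal small intestine markers were 1688 and 438 CPM against 104 to 207 CPM, also without overlap. Distal small intestine markers overlapped. The part of these differences in the female and interaction values without WT 3 and 4 was not tested.

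Whether the genotype difference itself differed between the labelled sexes was tested as an interaction, female minus male. None of the 10 genes was under 0.05 even unadjusted, beside 11.1% of all genes, and none passed with edgeR (0%) or DESeq2 (0.162%). The interaction was 0.47 for Notch1 (SE 0.310, unadjusted p = 0.151), -0.48 for Dll1 (SE 0.373, unadjusted p = 0.221) and 0.60 for Neurog3 (SE 0.694, unadjusted p = 0.398). The interaction without WT 3 and 4 was 0.74 for Notch1 (unadjusted p = 0.0102, adjusted p = 0.0883) and -0.48 for Dll1 (unadjusted p = 0.0232, adjusted p = 0.128) by edgeR, Benjamini-Hochberg, where 26.9% of all genes were under 0.05 unadjusted and 359 other genes passed the threshold (2.38%). The Neurog3 difference seen in females is thus not shown to differ from that in males.

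The Slfn3KO mice, whose sex transcripts all followed their labels, allow a comparison of the sexes that does not rest on WT 3 and 4. It was chosen after the data were seen. Dll1 was 23.9 to 25.0 CPM in the 4 female Slfn3KO libraries and 33.2 to 46.2 CPM in the 4 male ones, without overlap. Its log2 difference, female minus male, was -0.66 (SE 0.108, unadjusted p = 0.000153, adjusted p = 0.0887 by edgeR, Benjamini-Hochberg), rank 23 of 14159 genes by p-value. With DESeq2 the adjusted p was 3.67e-05, and with each library left out the edgeR adjusted p lay between 0.0335 (without male Slfn3KO 3) and 0.269, under 0.05 also without female Slfn3KO 3 at 0.0347. Dll1 therefore passed the threshold with DESeq2 and missed it with edgeR, where 7 genes passed (0.0494%), against 790 (5.58%) with DESeq2.

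Notch1 went the other way, at 13.9 to 19.3 CPM in female and 9.36 to 13.2 CPM in male Slfn3KO libraries, also without overlap. The difference was 0.55 (SE 0.147, unadjusted p = 0.00461, adjusted p = 0.0952 by edgeR, Benjamini-Hochberg), and DESeq2 gave an adjusted p of 0.0180 at a size under 1.5-fold. With female Slfn3KO 3 left out the edgeR adjusted p was 0.0482 and Notch1 passed the threshold too. The other 8 genes overlapped, among them Hes1 at -0.05 and Atoh1 at 0.20, although 13% of all genes separated the groups without overlap and 25% were under 0.05 unadjusted. Summed enterocyte markers were 4895 to 17357 CPM in female and 19143 to 39786 CPM in male Slfn3KO libraries, and summed proximal small intestine markers 104 to 207 and 232 to 1216 CPM, neither with overlap. Summed enteroendocrine products also did not overlap, at 316 to 331 CPM in female and 418 to 445 CPM in male Slfn3KO libraries. The other Notch receptors and ligands lay just apart, at 8.10 to 11.2 and 6.34 to 8.08 CPM. Apart from the sex transcripts, every other list overlapped. Among these were the secretory transcription factors (743 to 834 CPM in females, 809 to 982 in males) and goblet products (17743 to 22198 and 20708 to 25200). Paneth products (5850 to 12090 and 4395 to 6068) and distal small intestine markers (8281 to 11291 and 4309 to 14666) overlapped too. The part of these cell types and gut regions in the Dll1 and Notch1 values was not tested. The labelled sexes were not compared within WT, where 4 of 8 libraries went against their sex label.

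The rest of the pathway was read over all mice, where no gene of any list passed the adjusted threshold with edgeR. Beside the counts below, 11.9% of all genes were under 0.05 unadjusted, 4.84% with higher values in Slfn3KO mice. Of the other receptors and ligands, 2 of 5 were tested. Notch4, a receptor of endothelial cells, had a log2 fold change of 0.56 (unadjusted p = 0.0161) and the highest level per kb of the 5, and Jag2 of 0.11. Genes that cleave or sugar-coat the receptors had 4 positive and 10 negative values of 14 tested, with 2 under 0.05 unadjusted, both lower in Slfn3KO mice. The lowest was Mfng, a glycosyltransferase, at -1.17 (unadjusted p = 0.0145), from 4.22 ± 3.15 CPM in WT (SD, n = 8) to 1.87 ± 0.668 CPM in Slfn3KO mice (SD, n = 8). The highest was Pofut1, which adds fucose to the receptors, at 0.14. Among genes of ligand uptake and Notch inhibition 10 of 13 were negative, from Dtx1 at -0.75 to Dtx4 at 0.37, both Deltex ubiquitin ligases and both under 0.05 unadjusted, and Numb, which marks receptors for removal, had the highest level per kb. Nuclear cofactors had 4 positive and 8 negative values of 12 tested and none under 0.05, from Maml2 at -0.64 to Maml3 at 0.35, both coactivators of the RBPJ complex, and the corepressor Ctbp1 was the highest per kb.

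Other target genes of Notch gave 5 positive and 2 negative values among 7 tested. Olfm4, a secreted product of crypt base cells and the highest of the list per kb, had a log2 fold change of 0.93 (unadjusted p = 0.0375), Sox9 of 0.82 (unadjusted p = 0.0114) and the repressor Hey1 of -0.60 (unadjusted p = 0.133). Only the first 2 were under 0.05 unadjusted, beside 11.9% of all genes, and Sox9 was named after its value was seen. Their adjusted p-values were 0.386 and 0.330 by edgeR, Benjamini-Hochberg.

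Over all mice, 4.84% of all genes were under 0.05 unadjusted with higher values, a share to be set beside each count here. Transcription factors of the secretory lineages had 22 positive and 2 negative values among 24 tested, with a median log2 fold change of 0.28. Of these factors 8 were under 0.05 unadjusted, all higher in Slfn3KO mice. They ran from Klf4, a goblet cell factor with the highest level per kb, at -0.29 to Nkx2-2, an enteroendocrine factor, at 0.83 (unadjusted p = 0.00761, adjusted p = 0.327 by edgeR, Benjamini-Hochberg). The products of the mature cells did not share one pattern. All 7 Paneth products were positive with a median of 1.01 and 6 under 0.05 unadjusted, from the protease Mmp7 at 0.84 to the antimicrobial ribonuclease Ang4 at 1.397, with the defensin Defa24 the highest per kb. Goblet products had a median of 0.05, from the lectin Zg16, also the highest per kb, at -0.08 to Spink4 at 0.45. Enteroendocrine products had a median of -0.10, from the incretin Gip at -0.41 to proglucagon Gcg at 0.66, with secretin (Sct) the highest per kb. Of the tuft products 5 of 6 were tested, with a median of 0.29, from the channel Trpm5 at -0.05 to Avil, the highest per kb, at 0.49. Crypt stem cell markers had a median of 0.69, from Axin2, the highest per kb, at -0.12 to the stem cell receptor Lgr5 at 1.19, with 4 of 6 under 0.05 unadjusted.

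The lists were read again without WT 3 and 4, with 4 of the 8 WT libraries left. In that fit 3.1% of all genes were under 0.05 unadjusted and lower in Slfn3KO mice. The share that were higher is not given. Whether the changed counts below are particular to the lists was therefore not tested. The split of positive and negative values was the same in the processing, cofactor, goblet, Paneth, enteroendocrine, tuft and stem cell lists and among the other receptors and ligands. The counts under 0.05 unadjusted differed in all of these except the cofactors, which had none in either fit. In that fit, 18 of the 24 secretory transcription factors were positive, with a median of 0.17 and 1 under 0.05 unadjusted in place of 8. The 7 Paneth products were again all positive, with a median of 0.73 and 1 under 0.05 unadjusted in place of 6, and the stem cell markers had a median of 0.40 and 1 in place of 4. Tuft products had a median of 0.50 and 2 under 0.05 unadjusted in place of 1, both higher in Slfn3KO mice, and enteroendocrine products had 2 lower in place of 0, with a median of -0.06. Notch targets had 3 positive and 3 negative values among 6 tested. None of the receptors, ligands, processing, uptake, cofactor and target genes outside the 10 was then under 0.05 unadjusted.

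These lists moved beside other cells of the mucosa. All 6 B cell and follicle markers had lower values in Slfn3KO mice, with a median log2 fold change of -3.05. Each was under 0.05 unadjusted, beside 11.9% of all genes in either direction. Without WT 3 and 4 all 6 values were positive, with a median of 0.20 and none under 0.05 unadjusted. Summed Paneth products lay between 4395 and 12090 CPM in Slfn3KO libraries and between 1080 and 7259 CPM in WT libraries, and summed enterocyte markers between 4895 and 39786 and between 8950 and 44440 CPM. The part of these shifts in the values of the 10 genes was not tested.

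**Figure D5:**
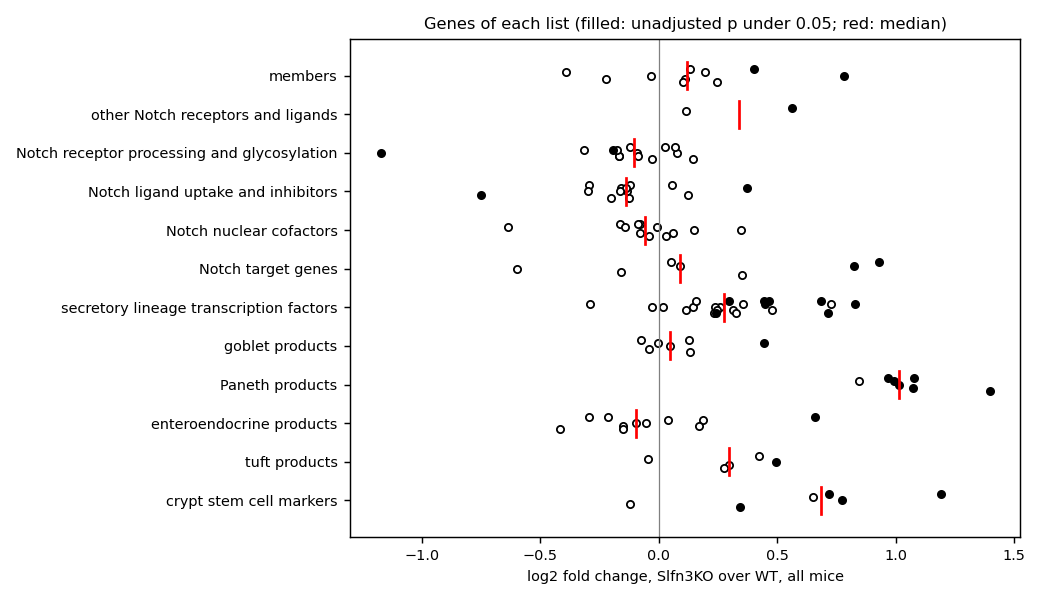
Pooled log2 fold change of Slfn3KO over WT (x axis) of each tested gene in the 10 genes (row labelled members) and in 11 lists (rows), filled where the unadjusted p is under 0.05, with a red line at the median. Paneth products lie between 0.84 and 1.397 with a median of 1.01, and the 10 genes have a median of 0.12.

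For each of the 10 genes, the 3 genes with the most similar log2 CPM over the 16 libraries were found by Pearson's r, as a description of libraries that share depth and cell makeup. Notch1 was closest to B230354K17Rik (r = 0.943), Celsr1 (0.942) and Cdca4 (0.936), and Notch2 to Mdn1 (0.974), Hdac7 (0.971) and Rasa3 (0.960). Dll1 was closest to Atpaf2 (0.959), Kdsr (0.934) and Tkt (0.931), Dll4 to Lst1 (0.867), Lgmn (0.854) and Abcg2 (0.844), and Jag1 to Slc44a3 (0.887), Map3k21 (0.855) and Scml4 (0.851). Hes1 was closest to Mcee (0.915), Abhd14a (0.887) and Rbfa (0.868), and Rbpj to Tmem191c (0.885), Creg1 (0.850) and Yju2 (0.826). Among the fate factors, Atoh1 was closest to Hepacam2 (0.927), Fam171a1 (0.893) and Gm2115 (0.885), Neurog3 to Twnk (0.959), 2900005J15Rik (0.957) and Sema5a (0.957), and Gfi1 to Kremen1 (0.794), Gm12576 (0.792) and Mettl14 (0.769). Without the 2 libraries farthest from the median of the gene, the first of each trio kept an r between 0.749 for Gfi1 and 0.954 for Notch2. The r of Dll4 with Lst1 was 0.679 without WT 3 and 4.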

How the data were processed

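RNA of ileum mucosa was sequenced as single reads, which the authors trimmed with cutadapt and aligned to mm10 with STAR. The authors deposited raw counts per gene, 1 column per library, without normalization. The file header names featureCounts 1.4.6 with reverse-stranded counting, whereas the methods of the study name HTSeq. Gene symbols matched 45143 of the 46078 identifiers. The processing notes of the submitters name DESeq2 1.22.2, whose results were not used.

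The counts were scaled to CPM with TMM factors and tested with edgeR 4.0.16 in R 4.3.3 (filterByExpr, robust quasi-likelihood F test, Benjamini-Hochberg adjustment over all genes tested). A gene passed at an adjusted p-value under 0.05 and at least 1.5-fold. The prior count for log2 CPM was 2. A count of 3, the floor used, was worth 0.0974 to 0.144 CPM depending on the library, for counting error only. Standard errors are the log2 fold change over the square root of F. Groups came from the titles, and each library is taken as 1 mouse. Levels per kb used the exon length of the table. Alternatives were DESeq2 1.42.0, RLE factors, no filter, at least 10 counts in every library, no fold threshold, an unadjusted p-value, no covariate, 1 fit over 4 groups, a replicate block, each library left out, and WT 3 and 4 left out. Replicate numbers are shared by the groups. In males the correlations of same-numbered deviations were between 0.138 and 0.518, and in females between -0.362 and 0.143. They were not set beside those of differently numbered libraries, so whether the numbers mark a real pairing was not tested. No 2 libraries of a group were alike within sampling noise (24.6 to 206 chi-square per gene over 24 pairs).

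The 10 genes, the lists and the tests were chosen with earlier results of these data known. Named genes are the 10, Slfn3, the sex transcripts, the highest and lowest log2 fold change and the highest level per kb of each pathway or fate list, with Sox9 added after its value was seen, and the 3 most similar genes. The gene with the highest level per kb of 1 list is not reported here. On simulated counts with 200 changed genes edgeR recovered 68% of 2-fold and 88% of 4-fold changes over all mice, 41% and 86% in females, 39% and 80% in males, and 29% and 64% for the sex difference. For the sexes within Slfn3KO it recovered 59% and 87%. DESeq2 recovered more in each comparison, with more false calls. They were 27 of 184 calls in females, 59 of 206 in males and 42 of 211 for the sexes within Slfn3KO. With edgeR they were 5 of 132, 10 of 129 and 11 of 157. Figures were drawn with matplotlib 3.10.9. Start regions came from RefSeq, GRCm38.p6.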

Additional observations from a re-analysis of the deposited data

Results flagged for a closer look

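In 40 groups of 4 libraries, 5 had 1 library far from the other 3, where chance gives about 1 group in 20. Notch2 was 34.3 CPM in male WT 3 against at most 11.1 CPM in the other male WT libraries. This library also had the most B cell and follicle markers, 583 CPM, and its sex transcripts went against its label. Hes1 was 35.5 CPM in male WT 1, above the other male WT libraries. Atoh1 stood apart in 3 groups, at 42.5 CPM in female WT 2 and 35.2 CPM in male WT 4, each above its group, and at 31.8 CPM in female Slfn3KO 4, below its group. Male WT 4 is another library whose sex transcripts went against the label. The cause of these values was not tested.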

How the results depend on the processing

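None of the 10 genes passed the adjusted threshold with edgeR or DESeq2 in a comparison of the genotypes, or in the interaction with sex, under any alternative that kept the adjusted p-value. Over all genes, DESeq2 in place of edgeR gave 55 genes over all mice, 14 in males, 506 in females and 24 for the interaction, in place of 0. An unadjusted p-value gave 984, 272, 1366 and 946 genes, with 1 of the 10 over all mice and 1 in females, Neurog3 in both. Without WT 3 and 4 the interaction gave 359 genes. DESeq2 was run on the same filtered genes. The fit with the replicate block gave 0 genes in each comparison and changed no call. It turned Dll1 over all mice to 0.0363 and Notch2 in females to 0.0630. Without the covariate, Dll1 over all mice was 0.0018.

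Without WT 3 and 4, log2 fold changes turned direction over all mice for Notch2 (0.39) and Dll4 (0.10), in females for Notch2 (0.72) and Dll4 (0.18), and in males for Notch2 (0.0883), Dll1 (-0.12), Dll4 (0.0389), Jag1 (-0.13), Neurog3 (-0.18) and Gfi1 (-0.18). In the interaction Dll4 turned to 0.15 and Atoh1 to -0.30. Atoh1 there was also -0.0224 with RLE factors, -0.0232 with DESeq2 and -0.0057 with at least 10 counts in every library, a filter under which Neurog3 was not tested. The cause was not tested.

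With 1 library left out at a time, the count of genes stayed at 0 in each of the 4 comparisons. Directions turned over all mice for Dll1 (-0.16 to 0.0655). In males they turned for Notch1 (-0.31 to 0.0898), Notch2 (-0.94 to 0.0177), Dll1 (-0.0168 to 0.40), Dll4 (-0.31 to 0.11), Jag1 (-0.0015 to 0.36) and Gfi1 (-0.14 to 0.11), and in females for Notch2 (-0.35 to 0.18) and Rbpj (-0.0610 to 0.0181). In the interaction they turned for Notch2 (-0.0922 to 0.88), Dll4 (-0.37 to 0.0411), Jag1 (-0.0279 to 0.36), Hes1 (-0.0182 to 0.45) and Atoh1 (-0.14 to 0.17).

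For females against males within Slfn3KO, edgeR gave 7 genes, DESeq2 790 (1 of the 10), no filter 25 (1 of the 10) and at least 10 counts in every library 0. An unadjusted p-value with the fold threshold kept gave 1302 (1 of the 10). With each library left out the count was 6 to 597, with 0 to 2 of the 10, at 597 (2 of the 10) without female Slfn3KO 3 and 365 (1 of the 10) without male Slfn3KO 3. Dll4 was then -0.13 to 0.0663 and Hes1 -0.10 to 0.0307. Neurog3, at 5 to 32 reads, is limited most by depth.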

Other observations

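Other cell types of the mucosa were read over all mice with lists of their markers, and no gene of these lists passed the adjusted threshold with edgeR. Beside the counts given here, 11.9% of all genes were under 0.05 unadjusted. All 5 T cell markers had negative log2 fold changes of Slfn3KO over WT, with a median of -0.60 and 2 under 0.05 unadjusted, and all 5 myeloid markers were negative with a median of -0.23 and 1 under 0.05 unadjusted. The endothelial markers, from cells that also express Dll4 and Notch4, had 3 positive and 3 negative values with a median of 0.13 and none under 0.05 unadjusted. Their summed level was 5.22 to 39.1 CPM in WT and 7.73 to 31.3 CPM in Slfn3KO libraries. Smooth muscle and stroma markers had a median of 0.47, again with none under 0.05 unadjusted. Without WT 3 and 4 the T cell median was -0.37, the myeloid median turned to 0.16, the endothelial median was 0.73 with all 6 positive, and the stroma median was 1.23.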
